A study of Mus musculus with 5 samples.

Results

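The NFI genes Nfia, Nfib, Nfic and Nfix and the POU3F genes Pou3f1, Pou3f2, Pou3f3 and Pou3f4 were followed in neural stem cells (NSCs) and in STO fibroblasts. The 8 genes were chosen by their names, with earlier results of these data known, and found through the RefSeq identifiers of the deposited tables. There they have 18 of the 40201 transcripts and make up 8 of the 25415 genes. The NSCs were primary cells of the embryonic mouse cortex (E12.5), carried for 5 to 8 passages on poly-l-ornithine and laminin in medium with EGF, bFGF, heparin and B27, and were sequenced in 2 replicates. The STO cells, a single established line of SIM mouse embryonic fibroblasts beyond passage 30 in DMEM with fetal bovine serum, were sequenced in 3 replicates. Both are listed as strain C57BL/6, and neither carried a treatment or transgene in the labels. Cell type, medium, passage and the use of a line or of primary cells all change together between the groups, so their effects cannot be told apart. The labels do not say whether the replicates were separate cultures, and p-values then measure only the spread between these samples.

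Nuclear factor I (NFI) proteins are DNA-binding proteins that pair up on a palindromic site and can activate or repress transcription. In the developing brain NFIA, NFIB and NFIX are known for the onset of glial differentiation and for the exit of radial glia from self-renewal, while NFIC is best known for its role in tooth root formation. The class III POU proteins (POU3F) bind octamer-like DNA with a POU-specific domain and a homeodomain, often next to a SOX protein, and are known from neural progenitors, upper-layer cortical neurons, the inner ear and Schwann cells.

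Values are FPKM, fragments per kilobase of transcript scaled to sequencing depth, as the authors computed them with Cufflinks. The intervals deposited beside them implied 20587283 and 22271895 fragments in the NSC replicates and 15223341, 17078753 and 21952753 in STO replicates 1, 2 and 3. The summed level of 4 neural stem cell markers (Nes, Sox2, Pax6 and Olig2) was 943 to 989 FPKM in NSCs and 0.0380 to 0.0724 FPKM in STO cells, and that of 6 fibroblast markers was 5.05 to 5.12 FPKM in NSCs and 1352 to 1462 FPKM in STO cells. The NSC cultures also held glial and neuronal transcripts. The 4 oligodendrocyte markers summed to 123 to 127 FPKM in NSCs, the 3 astrocyte markers to 48.5 to 48.9 FPKM and the 4 neuronal markers to 115 FPKM, most of it Map2 at 101 ± 1.12 FPKM (SD, n = 2). Among them, the myelin gene Mbp was at 83.4 and 88.3 FPKM in NSCs, whereas the mature markers Mog and Rbfox3 were below 1 FPKM. In STO cells these lists summed to 0.977 to 1.14, 0.0533 to 0.121 and 12.3 to 12.8 FPKM. Among the neuronal markers, Tubb3 was at a mean of 8.69 FPKM in NSCs and 8.30 FPKM in STO cells, and the others were lower in STO cells. Microglial and endothelial markers summed to at most 0.0328 and 0.503 FPKM in NSCs and to at most 0.377 and 0.237 FPKM in STO cells. In bulk RNA, fewer cells of a type and less RNA per cell cannot be told apart, and the part of these other cell types in the levels below was not tested.

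The changes went in 1 direction in the POU3F family and in both in the NFI family. All POU3F genes were far lower in STO cells, and Pou3f2 and Pou3f4 were listed at 0 there in every replicate, whereas the NFI genes were expressed in both cell types. Nfia and Nfib were lower in STO cells and Nfic and Nfix were higher. Comparing log2(FPKM + 1) with limma over 12293 genes, with Benjamini-Hochberg adjustment, 6 of the genes were called lower and 2 higher in STO cells at an adjusted p under 0.05. That count is read against the background, since 85.6% of all genes tested passed, 41.9% of all being higher and 43.7% lower in STO cells, so passing the test sets none of these genes apart. The FPKM ranges of the 2 cell types did not overlap for any of the 8, against 89.9% of all genes tested. A stricter rule, which added a log2 fold change of at least 1, was met by 17.1% of all genes in the higher and 21.3% in the lower direction, and was met by Nfic in the higher direction and by Nfia and every POU3F gene in the lower. Nfia met it narrowly, with a difference of -1.12 that became -0.98 without STO replicate 3, so that it no longer met this rule. With the replicate number as a block the difference is the same by construction, since only STO cells have a replicate 3. Pou3f2, Pou3f3 and Pou3f4 entered the test only through their level in NSCs, so a difference was bound to be seen for them.

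**Figure D1:**
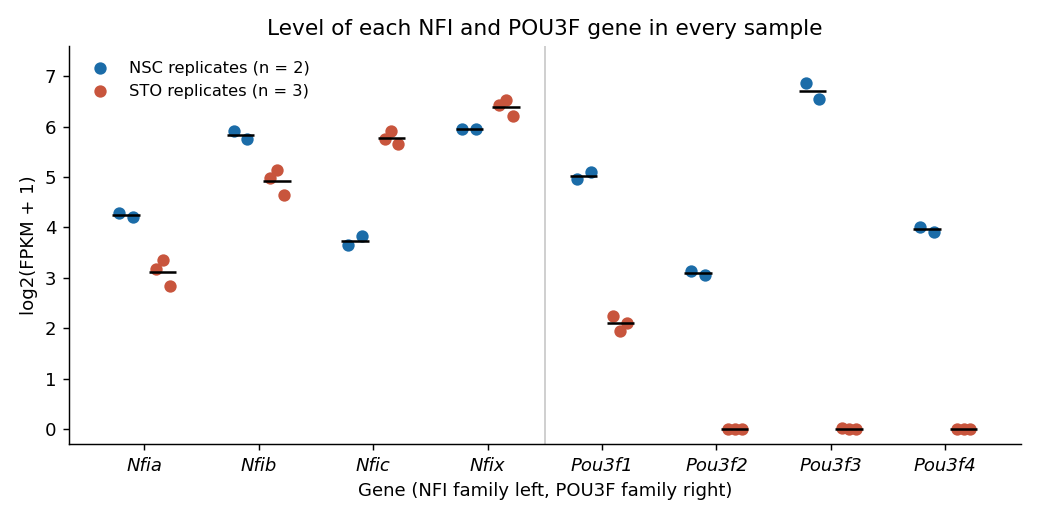
Level of each gene as log2(FPKM + 1) on the vertical axis, with 2 NSC replicates (blue), 3 STO replicates (red) and their means (black bars). The NFI genes are well above 0 in every sample, the lowest being Nfia in STO replicate 3 at 6.13 FPKM, whereas Pou3f2, Pou3f3 and Pou3f4 lie on the baseline in STO cells.

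**Figure D2:**
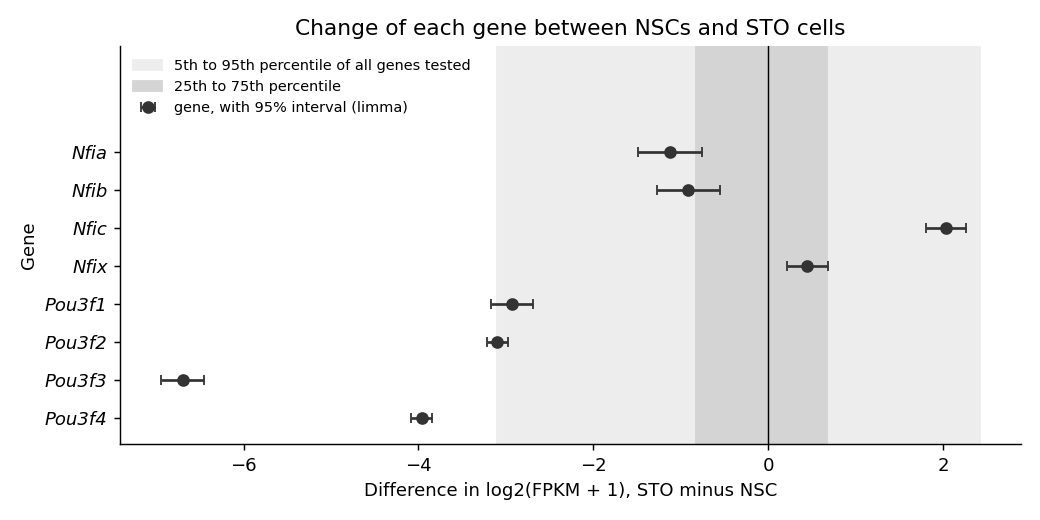
Difference in log2(FPKM + 1), STO minus NSC, on the horizontal axis for each gene, with the 95% interval from limma and grey bands for the range of all genes tested without the most extreme ones (light) and for their middle part (dark), whose percentiles are given in the key. Pou3f3 lies farthest from 0 at -6.70, and Nfic and Nfix are on the side of STO cells at 2.04 and 0.45.

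Pou3f3 (Brn1), a factor of cortical progenitors and upper-layer neurons, was the most abundant POU3F gene of NSCs. It was at 116 and 92.1 FPKM in the NSC replicates, ranks 594 and 808 among all genes, and at 0.0145, 0 and 0 FPKM in STO replicates 1, 2 and 3. The value in STO replicate 1 corresponds to 1 fragment. The difference of -6.70 (SE 0.0997, limma adjusted p = 1.52e-08) is on the log2(FPKM + 1) scale, which understates changes of genes near 0, and only 57 of the genes tested had a difference at least this large in either direction, Pou3f3 included. Pou3f4 (Brn4), known from the inner ear and the striatum, was at 15.0 and 14.1 FPKM in NSCs and listed at 0 in the 3 STO replicates (difference -3.96, SE 0.0496, adjusted p = 8.88e-09). Pou3f2 (Brn2), the partner of Pou3f3 in the cortex and a factor used to turn fibroblasts into neurons, was the lowest of the family in NSCs at 7.82 and 7.32 FPKM, and was also listed at 0 in each STO replicate (difference -3.10, SE 0.0479, adjusted p = 1.75e-08). None of these transcripts had a failed estimate, but an exact 0 in such tables is a listed value, so no fold is given against it.

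Pou3f1 (Oct6, also SCIP), which is known from the epiblast, Schwann cells and keratinocytes, was the exception in STO cells. It was at 30.1 and 33.1 FPKM in NSCs and at 3.72, 2.84 and 3.30 FPKM in STO replicates 1, 2 and 3. All STO replicates were at 2.84 FPKM or higher, and the deposited intervals imply 215 to 339 fragments there, so this level does not rest on a few reads. NSC levels were 9.61-fold higher than STO levels, with a difference of -2.93 (SE 0.0990, adjusted p = 5.70e-07). The order in NSCs was Pou3f3, Pou3f1, Pou3f4 and Pou3f2 in both replicates, with gaps between neighbours larger than the spread of the replicates. Pou3f1 thus made up 20.2% ± 3.38 (SD, n = 2) of the POU3F total in NSCs and 99.6%, 100% and 100% in the STO replicates. The family total was 158 ± 15.8 FPKM (SD, n = 2) in NSCs and 3.29 ± 0.450 FPKM (SD, n = 3) in STO cells, 47.9-fold lower.

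**Figure D3:**
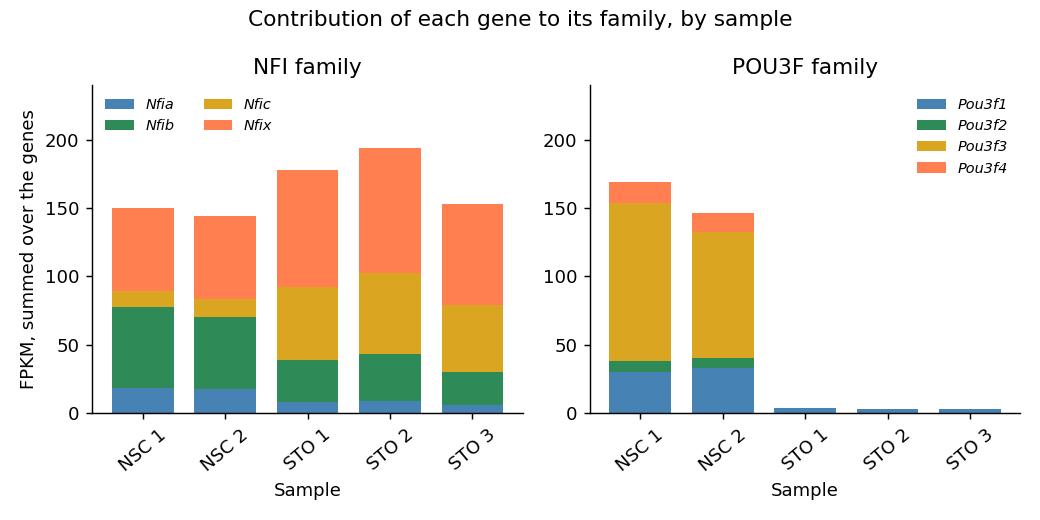
FPKM of each gene stacked within its family, for every sample on the horizontal axis. NFI totals are 144 to 150 FPKM in NSCs and 153 to 194 FPKM in STO cells with a changed makeup, and POU3F totals are at least 147 FPKM in NSCs and at most 3.74 FPKM in STO cells.

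All POU3F genes have the same simple build. In the mm9 annotation of GENCODE, Pou3f2, Pou3f3 and Pou3f4 consist of 1 exon and Pou3f1 of 1 or 2, no other gene overlaps them, and the deposited files hold 1 transcript for each. Pou3f2 lies on chr4:22409242-22415513 on the minus strand. On the plus strand are Pou3f1 on chr4:124334889-124337899, Pou3f3 on chr1:42753991-42757054 and Pou3f4 on chrX:108009718-108014447. Chromosome 4 also holds Nfia and Nfib, so 4 of the 8 genes are on it, in the order Pou3f2, Nfib, Nfia and Pou3f1, with gaps between neighbours of 59.52 Mb, 15.1 Mb and 26.55 Mb. The loci given are those of the deposited files, counted from 1.

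Promoters of 6 of the 8 genes, 9 windows in all, were at hand from RefSeq (build GRCm38.p6), running from 250 bases before to 50 bases after a transcription start. Nfib and Pou3f1 had no entry. Each window matched mm9 exactly at a single place. For Nfia, Nfic, Pou3f2 and Pou3f4 the transcription start of a window was also the start of a deposited transcript, whereas that of the Pou3f3 window was 1378 bases upstream of the deposited Pou3f3 transcript. Both strands were searched for the core of the NFI site (TTGGC), the whole NFI site (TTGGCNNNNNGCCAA), the CCAAT box (CCAAT), which shares 4 letters with the NFI core where both fall together, and the octamer bound by POU proteins (ATGCAAAT). The windows of the 3 POU3F genes at or near 0 in STO cells are shown 5′ to 3′ because these genes moved together, with every NFI core and CCAAT box in capitals:

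Pou3f2 (GRCm38.p6 chr4:22488317-22488616, minus strand): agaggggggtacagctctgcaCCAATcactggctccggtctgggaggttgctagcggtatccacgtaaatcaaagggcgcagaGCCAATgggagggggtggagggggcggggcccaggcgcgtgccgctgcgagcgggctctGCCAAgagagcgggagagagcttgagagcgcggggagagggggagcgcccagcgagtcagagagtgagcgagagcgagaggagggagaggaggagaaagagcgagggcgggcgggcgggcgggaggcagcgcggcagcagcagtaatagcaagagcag

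Pou3f3 (GRCm38.p6 chr1:42695518-42695817, plus strand): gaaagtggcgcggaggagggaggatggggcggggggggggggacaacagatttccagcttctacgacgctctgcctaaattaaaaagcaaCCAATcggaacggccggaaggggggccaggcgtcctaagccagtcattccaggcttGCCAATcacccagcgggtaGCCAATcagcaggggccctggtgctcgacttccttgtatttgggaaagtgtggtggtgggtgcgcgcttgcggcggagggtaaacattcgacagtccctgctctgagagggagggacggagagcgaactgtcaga

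Pou3f4 (GRCm38.p6 chrX:110814129-110814428, plus strand): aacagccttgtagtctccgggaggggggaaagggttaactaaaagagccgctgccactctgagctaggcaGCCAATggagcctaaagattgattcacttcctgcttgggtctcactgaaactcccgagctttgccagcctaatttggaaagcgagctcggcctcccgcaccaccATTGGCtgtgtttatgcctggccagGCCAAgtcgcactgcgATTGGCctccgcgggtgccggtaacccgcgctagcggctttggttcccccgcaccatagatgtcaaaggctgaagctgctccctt

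The NFI core occurred 2 times in the Pou3f2 window, 2 times in that of Pou3f3 and 4 times in that of Pou3f4, and the CCAAT box 2, 3 and 3 times. Of 32851 RefSeq promoter windows of this length, 46.7% held the NFI core and 37.4% the CCAAT box, so either motif is common. The octamer, in 1.74% of all windows, and the whole NFI site, in 0.037%, were in none of the 9 windows. The GC content was 67.7%, 60.3% and 57.7% for Pou3f2, Pou3f3 and Pou3f4 against a median of 52.7% over all windows, and CpG occurred 24, 18 and 15 times against a median of 7. The quartiles over all windows were 45.7% and 61.7% for GC content and 3 and 20 for CpG. Pou3f3 and Pou3f4 lie between these quartiles in both measures, and only Pou3f2 is above them. A match of letters is a description and not a bound site.

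The NFI family differed more in its makeup than in its total. The summed level was 150 and 144 FPKM in the NSC replicates and 178, 194 and 153 FPKM in STO replicates 1, 2 and 3. These ranges are separated by less than the spread of the STO replicates (SD 20.8 FPKM, n = 3). In both NSC replicates the order was Nfix, Nfib, Nfia, Nfic. In all STO replicates it was Nfix, Nfic, Nfib, Nfia, with no overlap between neighbours. In NSCs, Nfix and Nfib could not be ranked, since the gap between their ranges was smaller than the spread of Nfib. Within the STO group, replicate 2 had the highest and replicate 3 the lowest value for each of the 4 genes. In the deposited files (mm9), Nfia spans chr4:97248634-97785567 on the plus strand, and on the minus strand are Nfib at chr4:81936077-82151683, Nfic at chr10:80858936-80889918 and Nfix at chr8:87228611-87324237.

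Nfic, which is needed for tooth roots, had the largest change of the family. It was the lowest NFI gene of NSCs at 11.6 and 13.2 FPKM and stood at 53.2, 59.2 and 49.4 FPKM in STO replicates 1, 2 and 3. Its STO level was 4.36-fold that of NSCs, a difference of 2.04 (SE 0.0932, limma adjusted p = 2.40e-06) that lay at the 93.5th percentile of all genes tested. Its share of the NFI total was 8.43% ± 1.00 (SD, n = 2) in NSCs and 30.9% ± 1.22 (SD, n = 3) in STO cells. Both Nfic transcripts were higher in STO cells. NM_008688 was at 9.56 and 9.46 FPKM in NSCs and at 31.7, 38.8 and 32.5 FPKM in STO cells, and NM_026756 was at 2.02 and 3.71 FPKM in NSCs and at 21.6, 20.4 and 17.0 FPKM in STO cells. The transcripts were also fitted singly, where 77.1% of 16257 passed, and these differences were 1.74 (SE 0.101, adjusted p = 1.00e-04) and 2.45 (SE 0.225, adjusted p = 5.06e-04).

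Nfia, which is known to start gliogenesis and to act with SOX9, was at 18.4 and 17.5 FPKM in NSCs and at 8.09, 9.23 and 6.13 FPKM in STO replicates 1, 2 and 3. NSC levels were 2.30-fold higher, a difference of -1.12 (SE 0.149, adjusted p = 4.66e-04). Nfib, which is needed for lung maturation and for the corpus callosum, was at 59.1 and 53.0 FPKM in NSCs and at 30.7, 34.2 and 23.9 FPKM in STO cells. Its level was 1.89-fold higher in NSCs, a difference of -0.91 (SE 0.148, adjusted p = 0.00126). Nfib was 38.1% ± 1.86 (SD, n = 2) of the NFI total in NSCs and 16.8% ± 1.07 (SD, n = 3) in STO cells. Nfia was 12.2% ± 0.0998 (SD, n = 2) in NSCs and 4.44% ± 0.384 (SD, n = 3) in STO cells. Counting for each gene only the transcript with the highest mean over the 5 samples, the Nfia share was 10.4% in NSCs and 8.18% in STO cells. The Nfia difference of -0.46 then did not pass the test (adjusted p = 0.0644). Both genes remained expressed in the fibroblasts, Nfib at ranks 2706, 2354 and 3541 among all genes.

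Nfix, which is known from muscle and from neural progenitor differentiation, had the highest value of the family in every sample, in NSCs by less than the spread of Nfib, and changed least. It was at 61.0 and 60.6 FPKM in NSCs and at 85.5, 91.6 and 73.5 FPKM in STO replicates 1, 2 and 3, a 1.37-fold higher level in STO cells with a difference of 0.45 (SE 0.0964, adjusted p = 0.00480). The call rests on both NSC replicates and on the sum of the transcripts. With NSC replicate 1 or 2 left out, the difference stayed at 0.45 or 0.44 but was no longer called. NM_001081982, the Nfix transcript with the highest mean over the 5 samples, had a difference of -0.27 (SE 0.141, adjusted p = 0.147). In STO cells another transcript, NM_010906, was higher in every replicate, so this value does not compare the main transcript of each cell type.

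**Figure D4:**
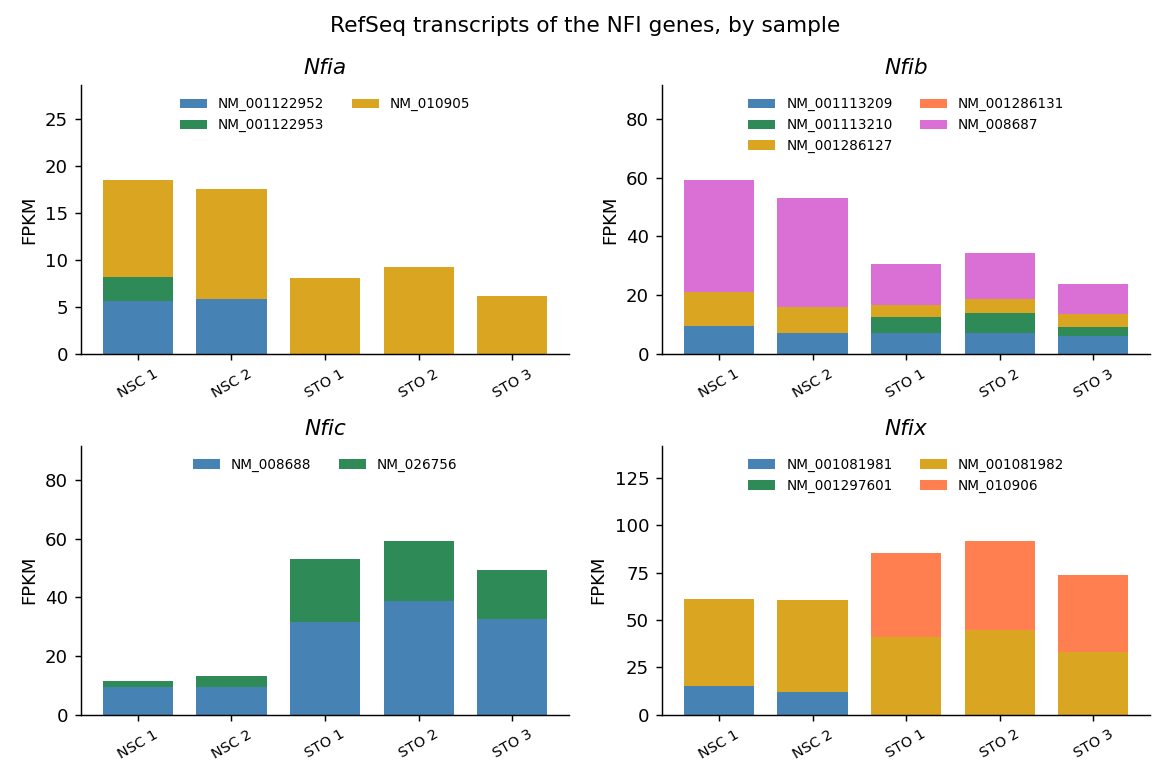
FPKM of each RefSeq transcript of the NFI genes, stacked for every sample, 1 panel per gene with its own scale. The Nfia transcript NM_001122952 and the Nfix transcript NM_001081981 appear only in NSC bars, and the Nfix transcript NM_010906 and the Nfib transcript NM_001113210 only in STO bars.

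Below the gene level, transcripts of Nfib and Nfix differed in both directions, and those of Nfia in 1 direction by unequal amounts. Cufflinks divides fragments shared by overlapping transcripts among them, so the split is an estimate and a value of 0 can be one outcome of it. Tested transcripts listed at 0 in every replicate of a cell type passed the filter only through the other cell type. The direction of their differences was thus fixed by the filter, and their adjusted p-values are no support for a direction. Nfia has 2 start sites in the deposited annotation, 195.7 kb apart on the plus strand of chromosome 4. The transcript from the upstream start at 97248634, NM_001122952, was at 5.57 and 5.81 FPKM in NSCs, 31.7% ± 2.12 (SD, n = 2) of the gene, and listed at 0 in the 3 STO replicates (difference -2.74, SE 0.0596, adjusted p = 4.74e-06). NM_010905, from the start at 97444317, was at 10.3 and 11.7 FPKM in NSCs and at 8.09, 9.23 and 6.13 FPKM in STO cells. Its difference of -0.46 (SE 0.173, adjusted p = 0.0644) did not pass the threshold. NM_001122953, from the same start, was at 2.55 FPKM in NSC replicate 1 and listed at 0 in the 4 other samples. The gene E130114P18Rik, on the opposite strand at chr4:97234824-97444769 in GENCODE, spans both Nfia starts, and was at 11.1 and 13.2 FPKM in NSCs and at 0.0360, 0.0943 and 0.0709 FPKM in STO cells. The libraries were stranded, but the strand setting of the quantification was not given in the sources used here, and the part of E130114P18Rik in the Nfia values was not tested.

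The RefSeq window of Nfia surrounds the upstream start and is shown because the transcript from it was listed above 0 in NSCs alone. That of Nfic, the gene with the largest rise of the 8, is shown beside it, again with NFI cores and CCAAT boxes in capitals:

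Nfia (GRCm38.p6 chr4:97581693-97581992, plus strand): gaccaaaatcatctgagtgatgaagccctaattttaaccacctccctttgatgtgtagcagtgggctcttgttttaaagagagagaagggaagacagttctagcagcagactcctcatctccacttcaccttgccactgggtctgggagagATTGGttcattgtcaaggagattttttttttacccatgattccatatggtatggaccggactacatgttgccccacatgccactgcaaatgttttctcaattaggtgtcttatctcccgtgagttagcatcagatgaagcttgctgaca

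Nfic (GRCm38.p6 chr10:81427124-81427423, minus strand): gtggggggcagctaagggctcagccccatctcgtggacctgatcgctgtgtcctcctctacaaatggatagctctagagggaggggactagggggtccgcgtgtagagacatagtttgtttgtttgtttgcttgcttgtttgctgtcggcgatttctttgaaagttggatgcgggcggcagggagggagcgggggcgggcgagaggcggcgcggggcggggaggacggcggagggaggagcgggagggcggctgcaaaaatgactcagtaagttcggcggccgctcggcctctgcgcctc

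The Nfia window held 1 CCAAT box and no NFI core, had a GC content of 44.7% and held 2 CpG. The Nfic window held neither motif, had a GC content of 63.0% and held 24 CpG.

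Nfix has 2 start sites 26.0 kb apart on the minus strand of chromosome 8. NM_001081981, from the downstream start at 87298268, was at 15.0 and 11.7 FPKM in NSCs, 22.0% ± 3.76 (SD, n = 2) of the gene, and listed at 0 in every STO replicate (difference -3.84, SE 0.116, adjusted p = 1.22e-05). From the upstream start at 87324237, NM_001081982 was at 46.0 and 48.9 FPKM in NSCs and at 41.1, 44.7 and 33.0 FPKM in STO cells (difference -0.27, adjusted p = 0.147). NM_010906, from the same start, was listed at 0 in both NSC replicates and was at 44.4, 46.9 and 40.6 FPKM in STO cells, 52.8% ± 2.11 (SD, n = 3) of the gene there (difference 5.49, SE 0.0751, adjusted p = 1.56e-06). The rest of the Nfix estimate in STO cells, 33.0 to 44.7 FPKM, was below the Nfix values of NSCs. The split of fragments between these 2 transcripts of the same start is an estimate. The part of NM_010906 in the higher Nfix level of STO cells was not tested. Of the genes that overlap Nfix on the other strand, Lyl1 was listed at 0 in every sample. The 4 RefSeq windows of Nfix belong to other starts, 959 to 5713 bases from the nearest deposited one, and are not shown.

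Nfib showed the same kind of split on a smaller scale, with all transcripts from 1 start. Its main transcript NM_008687 was at 38.1 and 37.1 FPKM in NSCs and at 14.1, 15.6 and 10.3 FPKM in STO cells (difference -1.44, SE 0.179, adjusted p = 0.00148). NM_001286127 was lower in STO cells too, at 11.5 and 8.91 FPKM against 3.99, 4.80 and 4.48 FPKM (difference -1.04, SE 0.130, adjusted p = 0.00153). NM_001113210 was listed at 0 in NSCs and at 5.45, 6.77 and 3.12 FPKM in STO cells (difference 2.56, SE 0.290, adjusted p = 0.00108). NM_001113209, at 9.49 and 7.02 FPKM in NSCs and at 7.11, 7.05 and 5.97 FPKM in STO cells, did not pass the threshold (difference -0.25, SE 0.146, adjusted p = 0.173). NM_001286131 of Nfib and NM_001297601 of Nfix were listed at 0 in all samples.

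Other members of the POU superfamily served as a comparison for the POU3F genes. Of 11 other POU domain genes, 2 reached a mean of 1 FPKM in either cell type, and both passed the test in opposite directions. Since 85.6% of all genes tested passed, this count is no result about the list. Pou6f1, a POU gene expressed in the nervous system, was at 15.4 and 14.1 FPKM in NSCs and at 3.69, 4.05 and 3.70 FPKM in STO cells (difference -1.71, SE 0.0657, limma adjusted p = 1.04e-06). Pou2f1 (Oct1), the widely expressed octamer-binding factor, was at 2.37 and 2.39 FPKM in NSCs and at 3.95, 4.10 and 3.24 FPKM in STO cells (difference 0.49, SE 0.0882, adjusted p = 0.00208). Pou1f1, Pou4f2, Pou4f3 and the pluripotency gene Pou5f1 (Oct4) were listed at 0 in all samples. Pou2f1, Pou6f1 and Pou3f1 were the POU genes with a mean above 1 FPKM in the fibroblasts, at 2.84 to 4.10 FPKM.

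Transcription factors known to work with NFI or POU3F proteins in neural progenitors were called lower in STO cells in 8 of 8 cases, beside 43.7% of all genes. Of these, 7 were listed at 0 in every STO replicate and entered the test only through their level in NSCs, so their direction was fixed by the filter and the count is no result about the list. Sox2, the SOX partner of POU3F proteins on neural enhancers, was at 308 and 276 FPKM in NSCs and listed at 0 in STO cells (difference -8.19, SE 0.0639, adjusted p = 4.68e-09). Sox3, of the same SOX group, had a difference of -6.91, Sox21, a repressor of the SOX B group, one of -4.89, and Sox11, a factor of early neurons, one of -4.71. Sox9, the partner of NFIA, which was chosen for mention after its values were seen, stayed abundant in the fibroblasts. It was at 97.7 and 111 FPKM in NSCs and at 51.0, 51.8 and 42.5 FPKM in STO cells, a difference of -1.10 (SE 0.107, adjusted p = 9.87e-05), beside -1.12 for Nfia.

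Genes described as NFI targets in neural cells moved in both directions. Of 11, 10 were tested, and 7 were lower and 2 higher in STO cells, with a median difference of -1.27 beside -0.023 over all genes tested. A count of 9 called among 10 is near the background of 85.6%, and 4 of the lower genes (Gfap, Aqp4, Fabp7 and Mmd2) entered the test only through NSCs. Their direction was fixed by the filter and they count in the median, so the median is no result about the list. Fabp7, the brain fatty acid binding protein of radial glia, was at 2783 and 3041 FPKM in NSCs and listed at 0 in STO cells (difference -11.51). Mmd2, which is induced by SOX9 and NFIA, was at 44.1 and 40.2 FPKM in NSCs and also listed at 0 in STO cells (difference -5.43). The astrocyte filament gene Gfap was at 15.9 and 16.9 FPKM in NSCs and at 0.0163, 0 and 0 FPKM in STO cells (difference -4.12). Hes1, a Notch effector that NFIA is known to repress, was at 19.2 and 20.9 FPKM in NSCs and at 3.39, 2.48 and 3.15 FPKM in STO cells (difference -2.40). Apcdd1 and Bbx, which passed the test in the other direction, had differences of 1.77 and 0.96 and are named after their values were seen. Ezh2, the histone methyltransferase of Polycomb complexes, was at 35.8 and 32.2 FPKM in NSCs and at 33.7, 34.4 and 36.4 FPKM in STO cells. Its difference of 0.038 (95% interval -0.13 to 0.20, adjusted p = 0.613) did not pass.

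Of 8 genes described as POU3F targets, 7 were tested, and 5 were lower and 1 higher in STO cells, a share called that is near the background of 85.6%. All 5 lower genes entered the test only through NSCs, so they could be called in that direction alone. Besides Fabp7 and Sox2, which are also in the lists above, these included Nes, whose neural enhancer carries a POU site, at 176 and 169 FPKM in NSCs and 0.0724, 0.0442 and 0.0380 FPKM in STO cells (difference -7.37). The Notch ligand Dll1 was at 12.1 and 12.9 FPKM in NSCs and at 0, 0.0113 and 0.00849 FPKM in STO cells (difference -3.75). Egr2, a target of POU3F1 in Schwann cells that was chosen for mention after its values were seen, was the gene that was higher in STO cells, at 5.20 and 4.87 FPKM in NSCs and at 7.67, 6.45 and 7.08 FPKM in STO cells (difference 0.42, SE 0.0782, adjusted p = 0.00255). Without NSC replicate 2 no gene of this list was called higher. Zfp521 was at 5.44 and 6.30 FPKM in NSCs and at 6.24, 6.64 and 6.23 FPKM in STO cells, and did not pass (difference 0.10, 95% interval -0.071 to 0.28, adjusted p = 0.213). Pax6, a regulator of cortical progenitors, was at 5.04 and 5.22 FPKM in NSCs and listed at 0 in STO cells (difference -2.62). Olig2, an NSC marker in neither list, was at 499 and 493 FPKM in NSCs and listed at 0 in STO cells.

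**Figure D5:**
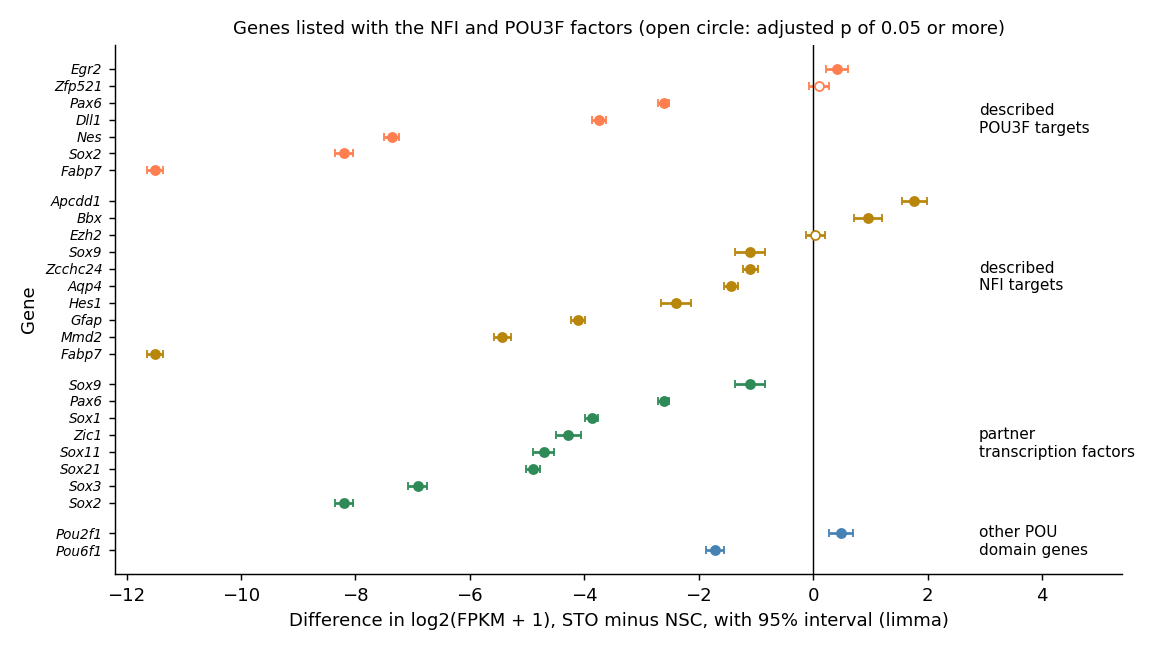
Difference in log2(FPKM + 1), STO minus NSC, with the 95% interval from limma, for each tested gene of the 4 lists. The partner factors all lie left of 0, from Sox2 at -8.19 to Sox9 at -1.10, whereas Apcdd1, Bbx, Egr2 and Pou2f1 lie right of 0.

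The genes with the most similar levels over the 5 samples, by Euclidean distance of log2(FPKM + 1), are given as a description. Near Pou3f3 were Mageh1 (distance 0.182) and Lrrc4b (0.205). Only 35 genes lay within a distance of 1 of it. Nearest to Pou3f2 were Tmod1 (0.00983), Adrb1 and Slc9a7, and nearest to Pou3f4 were Dner (0.110), Ptpn5 and Cdkn1c, among 365 and 255 genes within a distance of 1. Pou3f1 had 40 genes within that distance, with Msra (0.383) nearest, followed by the transcript NR_015476 without a matched symbol and by Ap4s1. Nfic was nearest to Vcl (0.213), Macf1 and Pds5a, and Nfix to Kdelr1 (0.216), Cdca8 and Cdv3. Nfia was nearest to Galnt11 (0.289), Daam1 and Natd1, and Nfib to Cirbp (0.351), Tspan5 and P4ha1. Within a distance of 1 lay 398 and 453 genes for Nfib and Nfia, and 318 and 108 for Nfix and Nfic. Profiles like those of Nfia, Nfib, Nfix, Pou3f2 and Pou3f4 are thus shared by many genes.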

How the data were processed

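RNA-seq of 2 NSC and 3 STO samples was analysed, grouped by their titles. The authors made stranded mRNA libraries, aligned trimmed reads to mm9 with HISAT2 (4.8.2 in the submitters' processing notes) and deposited FPKM values with interval bounds per RefSeq transcript from Cufflinks 2.2.1. Replicates were not pooled and no counts were used. Symbols were matched through RefSeq identifiers (GRCm38.p6 table, names only) for 99.4% of the 40201 transcripts, and FPKM of transcripts with 1 symbol and overlapping loci were summed. Fragments behind a value were taken from the deposited interval, with the distance to the upper bound as 2 SD of a Poisson count, which covers counting error only.

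NSC and STO samples were compared by moderated linear models (limma 3.58.1, R 4.3.3, functions lmFit and eBayes, prior variance following mean level). The response was log2(FPKM + 1), a gene entered when either cell type averaged 1 FPKM or more (12293 genes), and Benjamini-Hochberg adjusted p-values under 0.05 were called. The fit was also run on simulated data with few changed genes, a setting unlike these data, so that run is no support for the calls. Alternatives changed the pseudocount (0.1), the filter (none, or 5 FPKM), the scaling (quantile, median), the trend, the replicates, a replicate block and the transcripts summed. Python 3.11.15, numpy 2.4.6, pandas 2.3.3 and matplotlib 3.10.9 were also used.

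The 8 genes, the gene lists and the tests were chosen with earlier results of these data known. Named were the 8 genes, of each list the up to 4 called genes with the largest difference and the up to 2 most abundant genes that did not pass, the NSC markers of the study with Gfap, and the 3 nearest genes of each member. Genes named beyond this rule were chosen after their values were seen. A few genes that the rule or the lists would include are not reported here and are left out of the list counts and sums. Other assays of the study were not analysed here.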

Additional observations from a re-analysis of the deposited data

How the results depend on the processing

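The directions of the 8 differences held under all 13 alternatives run for each gene, with the exception of Nfix. Not all of these could change a direction. Pou3f2, Pou3f3 and Pou3f4 were at or near 0 in STO cells, so their direction could not reverse and is no sign of stability. Each POU3F gene has 1 transcript, so the highest transcript alone repeats its difference. The changed filters and the fit without a trend leave each difference as in the main fit. The replicate block gives the same differences as leaving out STO replicate 3. For the transcript with the highest mean alone, Nfix reversed to -0.27 (limma adjusted p = 0.147) and Nfia, at -0.46 (adjusted p = 0.0644), no longer passed the threshold. Leaving out 1 replicate gave 0.38 to 0.53 for Nfix, and 1 to 2 of the genes were then called higher in STO cells, because Nfix missed the threshold without either NSC replicate. Without NSC replicate 1 or 2, the remaining NSC sample was assumed to vary like the STO samples. For the described POU3F targets, 0 to 1 genes were called higher in STO cells with 1 replicate left out. Among other POU domain genes, 2 were called higher and 2 lower without a filter on low values, and 0 higher with a mean of at least 5 FPKM. The range over the alternatives was -1.24 to -0.46 for Nfia, -1.44 to -0.77 for Nfib, 1.74 to 2.12 for Nfic, -3.23 to -2.85 for Pou3f1, -6.26 to -3.06 for Pou3f2, -9.95 to -6.49 for Pou3f3 and -7.20 to -3.92 for Pou3f4, where the values farthest from 0 of the last 4 came from the pseudocount of 0.1.

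Counting for each gene only the transcript with the highest mean over the 5 samples also moved levels and shares. For Nfix this transcript was not the highest in STO cells, where NM_010906 was 52.8% of the gene. The Nfix level and the shares given here for STO cells leave that transcript out. In NSCs, Nfia was then at 11.0, Nfib at 37.6, Nfic at 9.51 and Nfix at 47.4 FPKM, and in STO cells Nfib was at 13.4, Nfic at 34.3 and Nfix at 39.6 FPKM. Shares of the NFI total became 10.4% for Nfia, 35.6% for Nfib and 44.9% for Nfix in NSCs, and 8.18%, 14.0% and 41.6% in STO cells, with 36.3% for Nfic.

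Both cell types have replicates numbered 1 and 2, and nothing in the labels pairs them. Deviations from the group means correlated at 0.011 and 0.060 between equally numbered samples, and at -0.060 to 0.046 in the remaining pairs. With 2 NSC replicates, their deviations are equal with opposite sign. The correlations of NSC replicate 2 thus repeat those of NSC replicate 1 with the sign reversed, and they cannot show whether samples are paired. With the replicate number as a block, 2 of the genes were called higher and 6 lower, as without it, and over all genes tested 4994 were called higher and 5250 lower. With the block, Nfia was at -0.98, Nfib at -0.77 and Nfix at 0.53, and no call at an adjusted p under 0.05 changed among the 8. Nfia then missed a log2 fold change of 1. No NSC sample shares the number of STO replicate 3, so the block gives the same differences as leaving that sample out.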
